A study of Homo sapiens with 8 samples.

Results

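Tiles that stayed methylated at every passage were followed in HUES64 human embryonic stem cells that carry knockouts of both DNMT3A and DNMT3B. The autosomes were cut into tiles of 1000 bases, and a CpG was used where it had at least 5 reads in every one of the 8 libraries. A tile was measured where it held at least 3 used CpGs, and its level was the methylated share of the reads summed over those CpGs. Kept tiles were those at 90% or more in each of the 8 libraries, and they numbered 3319 of 105631 measured tiles (3.14%). They were set against 5930 lost tiles, which were at 90% or more at passages 6, 7 and 8 but not at both passages 27 and 28. Without the library of passage 8 the lost tiles numbered 9157.

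HUES64 is an established embryonic stem cell line. Reduced representation bisulfite sequencing (RRBS), a bisulfite method that samples fragments rich in CpGs, gave 1 library of the knockout cells at each of passages 6, 7, 8, 11, 13, 17, 27 and 28, and libraries of unedited cells were not analysed here. Whether the passages were drawn from 1 culture or 1 clone is not in the labels, so a p-value over the libraries measures only their spread around a trend, which may be technical. The libraries held between 19898423 and 44599588 reads over CpGs, with the most at passage 6.

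DNMT3A and DNMT3B are the enzymes that place methyl groups on unmethylated CpGs, and DNMT1 is the enzyme that copies the pattern of the old strand to the new one after replication. Where copying misses a site and no enzyme restores it, the mark is diluted as cells divide. In human cells, dense methylation is typical of repeated sequence, of imprinted alleles and of promoters of many germ line genes outside the germ line, while most CpG-rich promoters carry almost none.

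The sequences of a few promoters in kept and lost tiles are given as examples, chosen after their values were seen. RefSeq promoter sequences (GRCh38.p14, 250 bases before to 50 after a start) were placed on the listed hg19 CpGs by the spacing of their own CpGs alone. Of 21319 sequences with at least 8 CpGs, 11003 matched at 1 place, and 10980 of those (99.8%) fell on the gene's own chromosome. The 250 bases before the start are shown for 3 genes whose start lay in a kept tile and for 2 whose start lay in a lost tile, each with at least 6 used CpGs in view and shown to compare windows of similar sampling. The capitals mark the used CpGs, and each sequence runs 5′ to 3′ on the gene's strand.
TUBA3E (kept, chr2:130198440-130198689, minus strand): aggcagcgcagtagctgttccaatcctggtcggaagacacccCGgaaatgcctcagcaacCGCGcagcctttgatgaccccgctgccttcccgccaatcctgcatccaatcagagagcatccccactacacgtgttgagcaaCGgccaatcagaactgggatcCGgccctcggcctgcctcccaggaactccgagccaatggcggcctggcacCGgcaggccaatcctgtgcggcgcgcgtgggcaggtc
HDGFL1 (kept, chr6:22569316-22569565, plus strand): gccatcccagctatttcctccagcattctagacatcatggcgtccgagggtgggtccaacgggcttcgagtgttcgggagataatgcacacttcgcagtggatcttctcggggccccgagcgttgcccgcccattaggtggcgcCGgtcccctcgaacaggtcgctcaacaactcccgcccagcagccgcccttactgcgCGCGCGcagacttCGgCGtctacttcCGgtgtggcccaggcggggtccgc
PLSCR2 (kept, chr3:146469562-146469811, minus strand): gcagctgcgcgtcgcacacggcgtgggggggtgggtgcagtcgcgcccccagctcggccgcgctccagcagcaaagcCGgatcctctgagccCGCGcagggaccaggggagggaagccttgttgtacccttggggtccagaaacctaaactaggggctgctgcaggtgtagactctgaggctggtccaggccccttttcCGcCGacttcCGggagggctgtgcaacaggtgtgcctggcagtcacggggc
ZPBP2 (lost, chr17:39867952-39868201, plus strand): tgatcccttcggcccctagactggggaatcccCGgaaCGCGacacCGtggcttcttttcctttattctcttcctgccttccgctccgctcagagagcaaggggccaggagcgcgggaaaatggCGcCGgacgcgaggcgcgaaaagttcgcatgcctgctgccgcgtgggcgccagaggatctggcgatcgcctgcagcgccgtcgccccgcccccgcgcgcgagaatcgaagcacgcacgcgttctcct
BHMT2 (lost, chr5:79069517-79069766, plus strand): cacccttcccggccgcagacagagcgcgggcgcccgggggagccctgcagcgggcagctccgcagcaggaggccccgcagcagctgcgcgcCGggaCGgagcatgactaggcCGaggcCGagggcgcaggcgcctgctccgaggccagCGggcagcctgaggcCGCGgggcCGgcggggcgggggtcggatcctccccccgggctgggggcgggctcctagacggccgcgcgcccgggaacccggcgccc

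The capitals are a minority of the CpGs in each of these 5 windows, and levels below are those of the used CpGs only. The lost examples are not typical: BHMT2 and ZPBP2 averaged 14.6% and 57.4% at passages 27 and 28, against 83.2% over all lost tiles. The positions beside the sequences are those of GRCh38, and all other positions are those of hg19.

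Among placed promoters, all of them with at least 8 CpGs, those methylated at every passage were rare. Of 7937 placed autosomal promoter windows of 300 bases with at least 3 used CpGs, 24 (0.302%) were at 90% or more in all 8 libraries, and 7601 (95.8%) were under 10% in all of them. Start sites of 32 genes lay in 29 kept tiles, and 21 of these genes (65.6%) were protein-coding. Start sites of 29 genes lay in 21 lost tiles, and 13 (44.8%) were protein-coding, against 81.1% of 8378 genes with starts in other tiles. Placed starts lay in 7721 measured tiles in all. Promoters without a unique CpG spacing were not placed, and a few placements may be wrong, so the counts are approximate. Of 35116 promoter sequences 21319 had at least 8 CpGs, and a match also needed at least 8 listed CpGs. Promoters with fewer CpGs are thus left out, and the shares do not describe promoters in general.

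The protein-coding genes with a start in a kept tile have varied roles. RNF17 and TDRD9 are tudor-domain proteins of spermatogenesis, and OOEP belongs to the maternal complex of the oocyte. TUBA3D and TUBA3E are alpha-tubulins of the testis, SPACA1 is a protein of the acrosome, and RBMXL2 is an RNA-binding protein of the testis. SLC22A16 is a carnitine transporter and SLC9B1 a sodium-hydrogen exchanger, both known from sperm. LEP encodes the hormone leptin, NCAM2 a neural adhesion molecule, FTMT mitochondrial ferritin, PLSCR2 a member of the phospholipid scramblase family and ZNF540 a zinc finger protein. The remaining protein-coding genes were HDGFL1, CCDC158, DPPA5, FAM153A, CTAGE4, CTAGE15 and LOC124904708. Genes known from germ cells had starts in lost tiles too, among them ZPBP2, ADAD1 and TDRD6. The roles were looked at after the names were seen, so no theme is read from them.

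In the TUBA3E window, 6 used CpGs ran 97.7%, 100%, 98.6%, 100%, 93.9%, 98.5%, 96.4% and 93.9% over passages 6, 7, 8, 11, 13, 17, 27 and 28. The HDGFL1 window, with 7 used CpGs, ran 98.5%, 100%, 100%, 100%, 98.0%, 95.9%, 94.6% and 98.3% in the same order. The PLSCR2 window, with 6 used CpGs, ran 98.6%, 96.7%, 96.9%, 100%, 96.9%, 100%, 98.1% and 95.9%. No library of the 3 windows lay under 93.9%. Both late libraries lay under all early ones in TUBA3E and HDGFL1, and early and late libraries overlapped in PLSCR2.

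RNF17, with 4 used CpGs, ran 100%, 97.1%, 100%, 100%, 100%, 100%, 96.0% and 94.2% from passage 6 to passage 28. NCAM2, with 7 used CpGs, ran 97.8%, 100%, 98.1%, 100%, 94.9%, 97.3%, 97.2% and 98.9%. LEP, with 7 used CpGs, ran 97.5%, 96.2%, 97.8%, 97.2%, 89.8%, 97.8%, 98.3% and 90.5%. The LEP window thus dipped under 90% at passage 13, while its tile of 10 used CpGs did not.

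DPPA5, a protein associated with pluripotent cells, shows how far a window can depart from its tile. Its tile of 16 used CpGs was kept, whereas the 4 used CpGs of its own window lay between 74.6% at passage 28 and 95.2% at passage 7. CTAGE4 and CTAGE15 were placed on the same 3 used CpGs, and TUBA3D and TUBA3E belong to a family of near-identical copies, so reads of these genes may be split between copies and their levels are uncertain.

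Promoters in lost tiles fell by very different amounts. BHMT2 and DMGDH, enzymes of choline and one-carbon metabolism, share 1 lost tile. The BHMT2 window, with 9 used CpGs, was at 93.1%, 93.5% and 92.2% at passages 6, 7 and 8, at 92.8%, 91.1% and 80.3% at passages 11, 13 and 17, and at 16.5% and 12.7% at passages 27 and 28. ZPBP2, which encodes a protein of the acrosome, was at 90.2%, 92.3% and 96.8% early and at 54.4% and 60.3% late. ADAD1, known from the testis, was at 93.2%, 100% and 100% early and still at 94.9% and 89.4% late, so its tile counts as lost by less than 1 point in 1 library. The rule chose both sets by tile levels that include these CpGs, and no test was made of them.

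**Figure D1:**
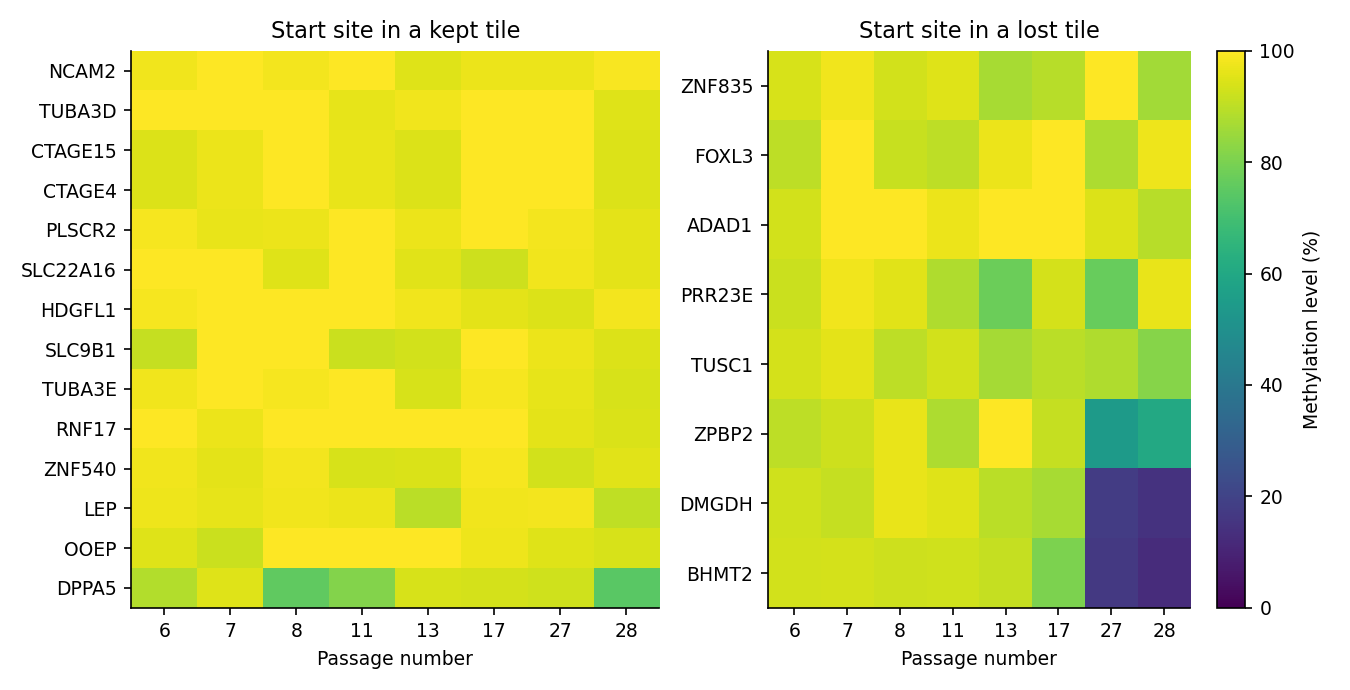
Methylation level (%, colour scale from 0 to 100) of the promoter window at each passage, for the named protein-coding genes with at least 3 used CpGs whose start lay in a kept tile (left, 14 genes) or a lost tile (right, 8 genes). Windows on the left stay near the top of the scale except DPPA5, while BHMT2, DMGDH and ZPBP2 on the right fall at passages 27 and 28.

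The gene lists gave few members among the kept tiles. Of 177 measured genes whose symbol starts with ZNF, 2 had a promoter window at 90% or more in all libraries. Under 10% in all libraries were windows of 162. The 2 were ZNF540 and ZNF571-AS1, a long non-coding RNA gene. Their windows overlap and gave identical levels from 5 used CpGs, so they stand for 1 place. None of the 8 measured imprinted genes had a promoter window at 90% or more in all libraries. MKRN3, an imprinted gene of the Prader-Willi region, came nearest, with 84.4% to 97.6%. PLAGL1 and GRB10 had windows near 0 beside a window of intermediate level, while both windows of ZNF331 were intermediate. None of the 4 measured protocadherin genes had a window at 90% or more in all libraries, and the 3 measured housekeeping genes were under 10% in all libraries. Of the 5 germ line genes of the list that were placed, the start of TDRD9 lay in a kept tile, but no own window had 3 used CpGs. Over all measured promoters the share at 90% or more was 0.302%, as above, and nothing particular to a list is read from these counts.

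Short motifs were searched on both strands of the 300 bases. The letters CACGTG, known as an E-box, were in 5 of the 32 genes with starts in kept tiles (15.6%), in 2 of 29 in lost tiles (6.90%) and in 9.93% of all promoters with at least 8 CpGs. The letters GCGGGAA or TTCCCGC, a form of the E2F motif, were in 4 of 32 (12.5%), 7 of 29 (24.1%) and 10.19%. Genes that overlap or are near-identical copies count apart here. Both CTAGE4 and CTAGE15 are among the 5, TUBA3D and TUBA3E among the 4, and ZNF454 and ZNF454-DT among the 7. The motifs can overlap only by an end base, and with so few genes these counts describe the windows only.

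The kept tiles were drawn from 10869 early-methylated tiles, those at 90% or more at passages 6, 7 and 8. Of these, 30.5% were kept (95% Wilson interval 29.7 to 31.4), 54.6% were lost, and 1620 (14.9%) were at 90% or more at passages 27 and 28 but lower at passage 11, 13 or 17. Intervals cover the counting of tiles only, and PCR copies of reads cannot be told apart here. Of the lost tiles, 3084 were under 90% at both late passages and 2846 at 1 of them only.

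The mean level of the kept tiles hardly moved, as the rule required. Over passages 6, 7, 8, 11, 13, 17, 27 and 28 it ran 96.0%, 96.5%, 96.5%, 96.5%, 96.4%, 96.2%, 95.8% and 95.7%. The lost tiles averaged 94.6% at passage 6 and 82.6% at passage 28, and all measured tiles 51.3% and 40.3%. From the mean of passages 6 to 8 to the mean of 27 and 28, the median difference was -0.544 points in kept tiles (quartiles -2.15 and 1.05), -8.59 in lost tiles and -3.86 in all tiles.

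Differences within the kept set were small. The late mean was above the early one in 1345 kept tiles and under it in 1948. The lowest of the 8 libraries was passage 28 in 542 kept tiles and passage 27 in 510, against 344 to 436 for each of the other libraries. Of the lost tiles, 4473 were still at 80% or more on average at passages 27 and 28, and 113 were under 50%.

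**Figure D2:**
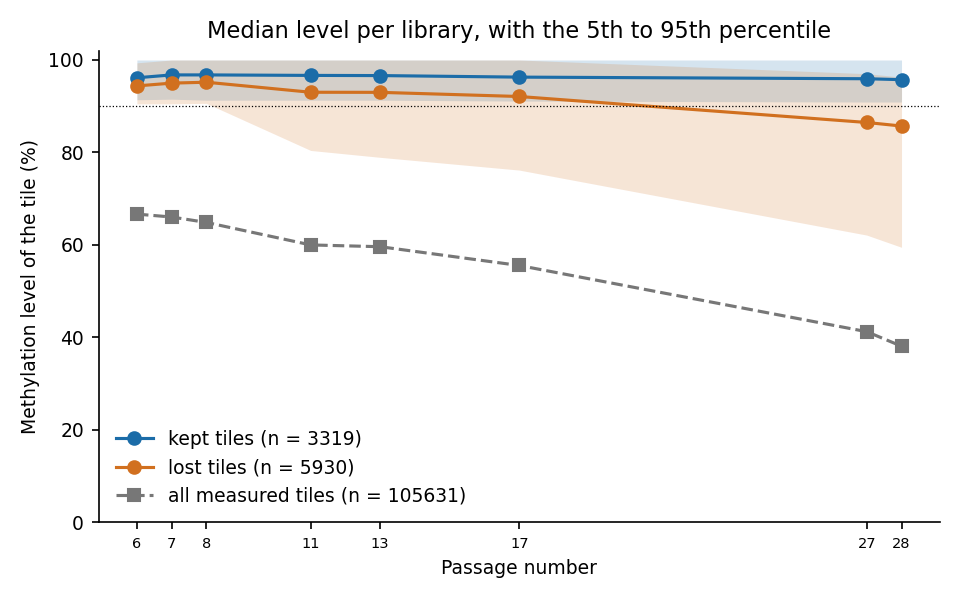
Median methylation level (%) of kept, lost and all measured tiles at each passage, with shaded bands from the 5th to the 95th percentile for kept and lost tiles and a dotted line at 90%. The kept median stays between 95.7% and 96.8%, the lost median ends at 85.7% and the median of all tiles at 38.1%.

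The threshold passes through a dense range of values. Among the kept tiles, 317 were at 95% or more in all libraries, 4 were at 100% in all, and 1646 (49.6%) were under 92% in at least 1 library. With at least 100 reads in every library, the tile at chr1:209405001-209406000 had its lowest level at exactly 90% (passage 28), and the tile at chr2:90483001-90484000 just missed with 89.97% (passage 28). The other two tiles just inside, both on chromosome 4, also had a lowest level of 90%, and the other two just outside, on chromosomes 8 and 19, had 89.95% and 89.93%.

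Single CpGs of kept tiles were less even than their sums. Of 17454 used CpGs in kept tiles, 35.9% were at 90% or more in every library and 79.8% at 80% or more in every library, against 13.3% and 44.0% of 27608 in lost tiles. Summed over libraries, 92.99% of the CpGs in kept tiles were at 90% or more. A median CpG had only 7 reads in its lowest library, so 1 unmethylated read takes it under 90%. Under 50% in at least 1 library were 128 CpGs of kept tiles and 3594 of lost tiles.

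The kept tiles with the highest lowest level were spread over 4 chromosomes. Among tiles with at least 5 used CpGs and 100 reads in every library, chr5:1333001-1334000 led. Its 10 used CpGs stood at 96.98%, 98.1%, 97.2%, 97.3%, 98.3%, 98.1%, 98.0% and 96.96% from passage 6 to passage 28, with 471 to 1059 reads a library. The nearest placed start sites were those of TERT, the catalytic subunit of telomerase, at 37.8 kb, and of CLPTM1L at 11.2 kb. The late mean of 97.5% differed from the early mean of 97.4% ± 0.568 (SD, n = 3) by 0.0321 points. The next 4 tiles, on chromosomes 22, 19, 7 and 5, had lowest levels between 96.5% and 96.9%, and their late minus early means lay between -1.18 and 0.178 points.

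Most of the kept tiles with the most listed CpGs had few used CpGs. The tile at chr4:716001-717000 had 100 listed CpGs, of which 4 were used, with 32 reads in its lowest library. It was at 97.3%, 97.6%, 94.7%, 100%, 100%, 96.9%, 100% and 96.5% from passage 6 to passage 28. The tile at chr2:2189001-2190000 had 95 listed CpGs with 13 used, and its levels lay between 93.3% at passage 27 and 99.2% at passage 8. The tile at chr15:22545001-22546000, with 80 listed and 35 used CpGs and at least 380 reads in each library, ran 92.8%, 93.3%, 91.5%, 94.2%, 97.3%, 93.2%, 95.2% and 91.2%. Early and late values overlapped in these 3 tiles. They did not in the tile at chr17:80212001-80213000, with 87 listed and 3 used CpGs, which was at 100% through passage 17 and at 94.7% and 94.3% late, with 19 reads in its lowest library.

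The largest falls among lost tiles show the other end of the range. At chr21:44841001-44842000, 10 used CpGs were at 90.9%, 96.1% and 93.6% at passages 6, 7 and 8, at 85.95%, 91.3% and 88.5% at passages 11, 13 and 17, and at 3.79% and 2% at passages 27 and 28. At chr22:37770001-37771000 the mean fell from 91.8% to 16.3%, and at chr10:5603001-5604000 from 93.6% to 29.2%. The lowest level of these 3 tiles through passage 17 was 74.6%, and their highest at passages 27 and 28 was 33.3%.

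The kept share was higher among tiles with 20 or more listed CpGs than among sparser ones. A tile's density was its count of CpGs found in at least 1 library, and the median was 9 in kept tiles, 8 in lost tiles and 9 in all tiles. Of early-methylated tiles with 3 to 9 listed CpGs, 28.7% were kept, and of those with 10 to 19, 26.5%. Of those with 20 to 34, 41.1% were kept, and of those with 35 or more, 48.5%. At 20 or more the share was 43.8% (41.5 to 46.1), at fewer than 20 it was 28.0% (27.0 to 28.9), and tiles with 20 or more made up 23.4% of kept, 12.6% of lost and 22.99% of all tiles.

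Dense tiles had the higher kept share in each of 3 depth classes. The kept share itself moved with depth, from 28.8% with fewer than 50 reads in the lowest library to 34.01% with 50 to 99 and 40.3% with 100 or more, and beyond the classes given here its part in the comparisons was not tested. The median of the lowest library was 35 reads in kept and 34 in lost tiles. With fewer than 50 reads, 42.9% of dense and 27.1% of sparser tiles were kept. With 50 to 99 reads the shares were 43.3% and 30.7%, and with 100 or more 46.6% and 33.6%. The difference of 15.9 points between dense and sparser tiles was 10.05 points with at least 10 reads per CpG and 4.93 at a level of 95%. With at least 20 reads per CpG it was 5.55 points, with a 95% interval from -9.96 to 20.96 that includes 0.

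**Figure D3:**
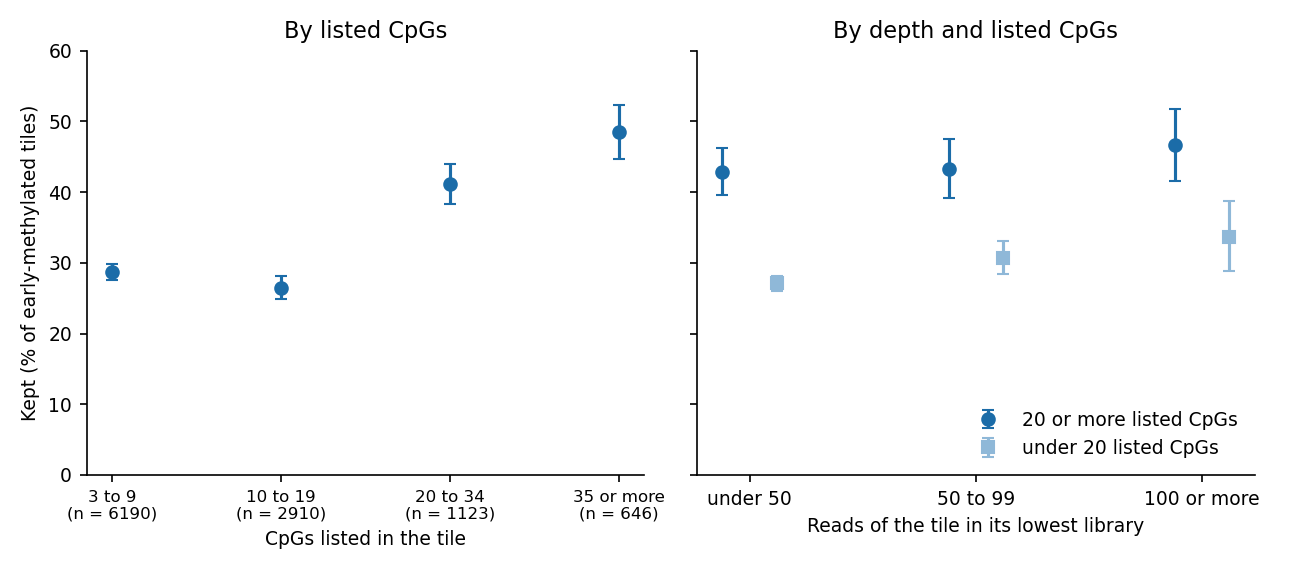
Share of early-methylated tiles that were kept (%), by the number of CpGs listed in the tile (left) and by depth class for tiles with 20 or more and under 20 listed CpGs (right), with bars for the 95% Wilson interval. The share is 26.5% at 10 to 19 listed CpGs and 41.1% at 20 to 34, and the dense class lies above the sparser one at each depth.

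The starting level moved with the same comparison. Kept tiles averaged 96.3% over passages 6 to 8 and lost tiles 94.99%. Of tiles with an early level from 90 to 93%, 10.6% were kept, from 93 to 95% 21.4%, from 95 to 97% 35.3%, and from 97% up 46.6%. Dense early-methylated tiles did not start higher, with a mean of 95.15% against 95.6% for sparser ones. Among tiles that started at 95% or more, 56.0% of dense and 37.1% of sparser tiles were kept. Beyond these classes, the part of the starting level in the comparisons below was not tested.

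By the 90% rule, kept tiles lay farther from chromosome ends than lost tiles, an order that turned under other rules. The ends were taken as the outermost listed CpGs of each chromosome. The median distance to the nearer end was 22.5 Mb for kept, 17.7 Mb for lost and 17.6 Mb for all tiles. Within 5 Mb of an end 27.7% (26.0 to 29.5) of early-methylated tiles were kept, farther in 31.4% (30.4 to 32.4), and beyond 30 Mb 33.3%. The difference of -3.67 points was -1.46 among tiles that started at 95% or more, with a 95% interval from -4.35 to 1.48 that includes 0. It turned to 3.59 at a level of 95% and to 15.98 with at least 20 reads per CpG, where 83 kept tiles remained.

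The share also differed between chromosomes. It was highest on chromosome 8, at 39.2% (35.1 to 43.4), followed by chromosome 4 at 35.8%, chromosome 5 at 35.3% and chromosome 2 at 34.4%. It was lowest on chromosome 21 at 21.97% (16.4 to 28.7), chromosome 22 at 22.4%, chromosome 20 at 24.2% and chromosome 16 at 24.7%. The intervals of chromosomes 8 and 21 do not overlap, while most neighbours in this order do. Chromosomes 8 and 21 were picked as highest and lowest after the shares were seen, and no difference between chromosomes was tested. Counts ranged from 38 kept tiles on chromosome 21 to 280 on chromosome 2.

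**Figure D4:**
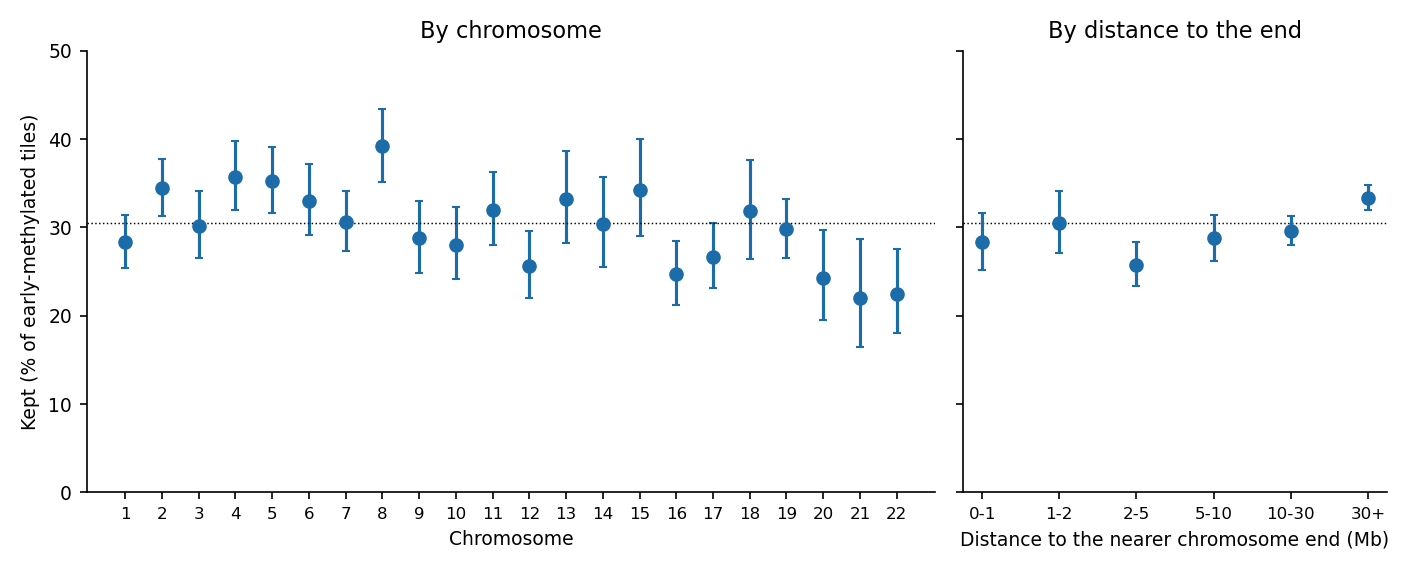
Share of early-methylated tiles that were kept (%), by chromosome (left) and by distance to the nearer chromosome end in Mb (right), with 95% Wilson intervals and a dotted line at the share over all autosomes, 30.5%. Chromosome 8 lies highest and chromosomes 21 and 22 lowest, and the farthest class on the right is the highest there.

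The kept share was higher among tiles whose nearest early-methylated tile was itself kept. Where the nearest other early-methylated tile within 10 kb was kept, 46.7% of 956 tiles were kept, and where it was not kept, 27.2% of 1795. Within 1 kb the shares were 56.2% and 31.0%, and within 100 kb 36.2% and 27.6%. Among dense tiles the shares within 10 kb were 57.1% and 34.9%, and among sparser tiles 43.2% and 25.1%. The difference of 19.5 points was 10.8 without passage 28.

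Most kept tiles stood alone all the same. Joined over gaps of 10 kb or less with no lost tile between, they formed 2798 single tiles, 145 pairs, 30 groups of 3, 13 groups of 4 and 10 larger groups. The group with the most kept tiles covered chr4:132646001-132672000 with 18 of them, 430 listed and 253 used CpGs. From passage 6 to passage 28 its mean ran 95.3%, 95.2%, 95.2%, 95.1%, 95.7%, 94.6%, 94.95% and 94.8%. The lowest level of its kept tiles in any library was 90.08%, and 8 further measured tiles inside the span averaged 90.1% early and 89.5% late.

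The kept tiles of the next groups were as high, as the rule required. At chr13:57714001-57743000, 14 kept tiles averaged between 96.0% at passage 27 and 98.2% at passage 7. At chr19:37774001-37786000, 10 kept tiles averaged between 93.3% at passage 27 and 95.1% at passage 6. Within 60 kb outside the group on chromosome 19, 34 tiles were measured, of which 8 were kept and 9 lost. Around the group on chromosome 4, 9 of 18 were kept and 1 was lost. Around the group on chromosome 13, 3 were measured and were neither kept nor lost. The nearest placed start sites around the group on chromosome 4 were 2913 kb and 7265 kb away (JADE1 and NOCT), while the group on chromosome 19 lay between the zinc finger genes ZNF420 (205 kb) and ZNF570 (174 kb).

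In each of the 3 groups CpG positions recurred at a distance chosen for that group, near the one with the highest share of partners. In the group on chromosome 4, 540 of 556 listed CpGs (97.1%) had another listed CpG 2488 bases on, within 20 bases either way. On chromosome 13, 134 of 136 (98.5%) had one 6571 bases on, and on chromosome 19, 230 of 230 had one 2524 bases on. Over 9501 distances from 0.5 to 10 kb the median share with a partner was 41.9%, 12.2% and 42.2%. At exactly the chosen distances, without the allowance of 20 bases, the shares were 19.4%, 30.9% and 40.9%. The spans are 10.5, 4.41 and 4.75 times these distances. Runs of 10 CpGs with identical spacing were not shared between the 3 groups. Where copies are near-identical, reads can be placed on the wrong copy, so the levels of single tiles inside these groups are uncertain.

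CpG spacings that occur more than once were also counted over the whole set. A tile was scored where it held a run of 10 listed CpGs, as 1545 of the 3319 kept tiles did, and counted as recurring where the same 9 spacings occurred elsewhere in the listed CpGs. Of 1545 scored kept tiles 692 (44.8%; 42.3 to 47.3) recurred, of 2502 lost tiles 872 (34.9%; 33.0 to 36.7), of 4679 early-methylated tiles 1858 (39.7%), and of all 52750 scored tiles 6972 (13.2%). With runs of 12 CpGs the shares were 40.4%, 33.5%, 36.99% and 10.6%. Among dense early-methylated tiles 48.3% of recurring and 37.5% of other tiles were kept, and among sparser ones the order was the other way, at 23.4% and 27.7%.

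The kept and lost tiles were also compared on CpGs that the rule did not use, those under 5 reads in at least 1 library. Summed to at least 5 reads per tile and library, such CpGs were present in 2124 kept and 3854 lost tiles. They may lie on the same reads as used CpGs. In kept tiles they ran 87.8%, 87.8%, 87.7%, 87.3%, 86.9%, 86.6%, 85.0% and 84.6% from passage 6 to passage 28. In lost tiles they ran 83.1%, 83.1%, 83.1%, 81.4%, 81.2%, 80.1%, 75.1% and 73.4%.

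The slope of these unused CpGs was -0.143 ± 0.00670 points per passage in kept tiles and -0.427 ± 0.0299 in lost tiles (SE over 8 libraries). The difference between the sets was 4.69 points at passage 6 and 11.2 points at passage 28, and kept tiles were the higher set in 8 of 8 libraries. Since the sets were chosen on the same tiles and libraries, and the unused CpGs can share reads with the used ones, these values are a description and no test of them is given.

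Tiles beside kept tiles fell more slowly than tiles beside lost ones. Outside the early-methylated set, 536 measured tiles lay directly next to a kept and no lost tile, and 1349 next to a lost and no kept tile. The mean of the first kind was 76.5% ± 0.366 over passages 6 to 8 (SD, n = 3) and 68.6% over passages 27 and 28, and that of the other kind 72.6% ± 0.533 and 56.3%. The slopes were -0.388 ± 0.0156 and -0.792 ± 0.0394 points per passage (SE over 8 libraries; exact permutation p adjusted over 10 trends = 3.1e-05 for both).

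The difference of these slopes was 0.404 ± 0.0295 points per passage (r = 0.984, exact permutation p = 0.000298, adjusted over 5 differences 0.000298; rho = 0.976, exact permutation p = 0.000397). Without passages 27 and 28 r was 0.959 (exact permutation p = 0.00972, n = 6). Neighbours that started between 60 and 90% gave 0.463, and tiles 2 to 10 tiles away but not adjacent gave 0.165, a smaller difference of the same sign. The neighbours were sorted by the late levels of the tiles beside them in these same libraries, and adjacent tiles can share reads. A gap that widens late can follow from that choice, so the p-values are no independent test.

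Tile by tile, losses were called by quasi-binomial regression on passage at an adjusted p under 0.05 and a fitted change of at least 10 points. Over all 78387 tested tiles 34.0% were called as losses and 0.165% as gains. Next to kept tiles 110 of 506 tested tiles (21.7%) were called, and next to lost tiles 572 of 1283 (44.6%). Among neighbours that started from 80 to 90% the shares were 23.9% and 46.2%, with 29.1% of all tested tiles of that level, and from 60 to 80% they were 30.2% and 51.6%, with 36.5%. The test is per tile, and the shares describe the sets without a test between them.

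Of the 3319 kept tiles 2683 had enough reads of both states to be tested, and by the rule 0 of them were called as losses or gains of 10 points. At any size of change, 28 were called as falls and 7 as rises, where 36.2% and 0.239% of all tested tiles were called. An unadjusted p under 0.05 was found for 94 of them, and for 33992 of all 78387 tested tiles. On logit levels limma called 1 of the 3319 kept tiles as a loss, where it called 18% of all 105631 tiles. Of 5872 tested lost tiles 1959 (33.4%) were called as losses of at least 10 points, near the 34% of all tested tiles. Both sets were chosen on this contrast, so nothing is read from these counts.

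**Figure D5:**
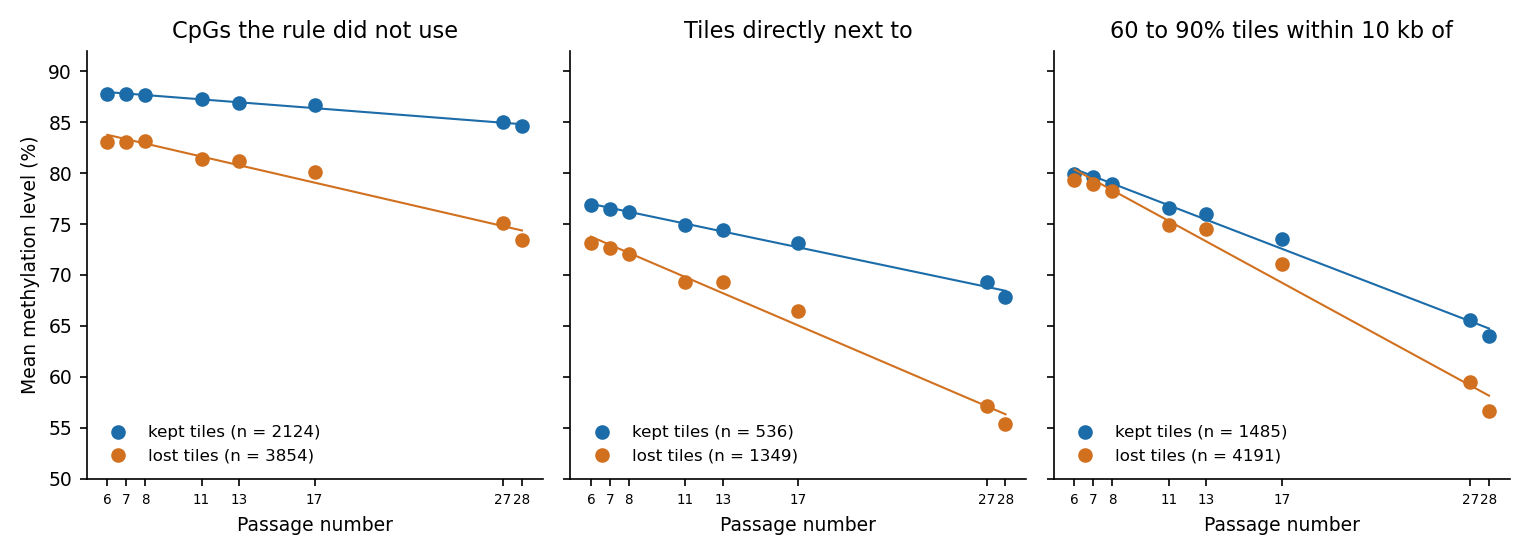
Mean methylation level (%) against passage number, 1 point per library, with least-squares lines: CpGs of kept and lost tiles that the rule did not use (left), tiles directly next to kept or lost tiles (middle), and tiles of 60 to 90% within 10 kb of a kept or a lost tile (right). In each panel the points of the lost set lie under those of the kept set, and the gap widens with passage.

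Methylated tiles outside the rule gave the same order by neighbourhood. Among tiles with a mean of 60 to 90% at passages 6 to 8 and outside the early-methylated set, 1485 lay within 10 kb of a kept and no lost tile. They went from 79.5% ± 0.486 (SD, n = 3) to 64.8%. The 4191 tiles within 10 kb of a lost and no kept tile went from 78.8% ± 0.593 to 58.1%. The slopes differed by 0.297 ± 0.0270 points per passage (SE over 8 libraries; r = 0.976, exact permutation p = 0.000149, adjusted 0.000248; rho = 0.976, exact permutation p = 0.000397), and by 0.469 with at least 10 reads per CpG. Without passages 27 and 28 r was 0.970 (exact permutation p = 0.00833, n = 6). These sets too were sorted by late levels in the same libraries and include adjacent tiles, so the p-values are no independent test.

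Position gave the same order too. Tiles of 60 to 90% within 5 Mb of a chromosome end (10333) went from 78.1% ± 0.565 to 53.6%, and those farther in (28408) from 78.7% ± 0.314 to 66.5% (SD, n = 3). The slope nearer the ends was lower by -0.592 ± 0.0349 points per passage (SE over 8 libraries; r = -0.990, exact permutation p = 2.5e-05, adjusted 0.000124, the smallest p that 8 libraries allow; rho = -1, exact permutation p = 5e-05). It was -0.382 with at least 10 reads per CpG. Without passages 27 and 28 r was -0.984 (exact permutation p = 0.00139, n = 6).

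Density gave the opposite order outside the rule. Tiles of 60 to 90% with at least 20 listed CpGs (2251) went from 79.5% ± 0.560 to 55.2%, and those with fewer than 10 (25801) from 78.0% ± 0.314 to 64.0% (SD, n = 3). The denser tiles lost more, with slopes that differed by -0.503 ± 0.0520 points per passage (SE over 8 libraries; r = -0.969, exact permutation p = 9.9e-05, adjusted 0.000248; rho = -0.976, exact permutation p = 0.000397). Without passages 27 and 28 r was -0.976 (exact permutation p = 0.00556, n = 6). It was -0.307 with at least 10 reads per CpG and -0.295 for 15 or more against fewer than 15 listed CpGs. With reads summed over the set it was -0.147 (adjusted exact permutation p = 0.0288, n = 8). High density thus went with a larger kept share among tiles at 90% or more and with a steeper fall among tiles of 60 to 90%. Whether these 2 starting levels differ in this was not tested.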

How the data were processed

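RRBS calls from 8 libraries, 1 per passage, were used. Per the submitters' processing notes the build is hg19, and for the aligner, methylation caller and duplicate removal the sources used here give nothing. The deposited files give each CpG's methylated and total read count, which were summed over tiles. Beside them is the authors' score, which equals 1000 times the methylated share of those reads within rounding and served only as a check. Positions are counted from 1. No hg19 genome or annotation was used, so chromosome ends are the outermost listed CpGs, tiles carry no exon or intron class, and the gene lists were read from placed RefSeq promoters.

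The members and lists were chosen with earlier results of these data known. Tiles named are, by rule, the 5 kept tiles with the highest lowest level, the 5 with the most listed CpGs, the 3 groups with the most kept tiles, 3 tiles either side of the threshold and the 3 largest falls. Genes were chosen after their values were seen, as were promoter placement and recurring spacing.

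Trends over the 8 libraries used Pearson's r and Spearman's rho with two-sided exact permutation tests over all 40320 orders, and slopes by least squares. Per tile, quasi-binomial regression on passage used R 4.3.3 and limma 3.58.1 (squeezeVar), with 10 reads of each state required, Benjamini-Hochberg adjustment, and a check on simulated data. Other steps used Python 3.11.15, numpy 2.4.6 and scipy 1.17.1. Intervals of shares are Wilson's at 95%, and those of differences of shares are Newcombe's, built from the Wilson bounds. Alternatives covered coverage minimums, level, tile size and offset, weighting, an upper coverage limit, distances, density classes, a log2 passage scale and omission of each library. Chromosome Y was not analysed here.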

Additional observations from a re-analysis of the deposited data

Results flagged for a closer look

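Chromosome X lay outside the autosomal rule and was measured in the same way. Of 2002 tiles on it, 160 were at 90% or more at passages 6, 7 and 8. Of these, 28.1% (45 tiles; 95% Wilson interval 21.7 to 35.5) were at 90% or more in all 8 libraries and 92 were lost. The kept tiles of chromosome X averaged 94.8% at passage 6 and 94.6% at passage 28. The autosomal share of 30.5% lies inside the interval of chromosome X. No group had 4 or more libraries, so single libraries were not screened for outliers.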

How the results depend on the processing

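No paired analysis was possible because there is 1 library at each passage. The 5 slope differences kept their sign and stayed past the threshold in 62 of 62 alternatives, with adjusted exact permutation p between 0.000124 and 0.0288. Those of the unused CpGs, the adjacent tiles and the tiles within 10 kb are counted among them but are no independent tests. Their sets were sorted by late levels in these same libraries, so their sign and p-values in the alternatives can follow from that choice. Only the sets by chromosome end and by density were sorted without late levels. The adjustment over the 5 differences includes that of the unused CpGs. Counts and shares depend on the rule, and the cause was not tested unless a setting tests fewer CpGs by construction. With 10 reads per CpG there were 597 kept and 847 lost tiles, a kept share of 36.3%, differences of 10.05 points by density and 23.9 by nearest tile, and 5593 called losses. With 20 reads these were 83, 90, 45.1%, 5.55 and 33.7, and the difference by chromosome end turned to 15.98. At a level of 80% they were 13887, 12212, 48.95% and 23.6 by density, with -11.4 by end. At 95% they were 317, 1768, 12.2% and 4.93 by density, with 3.59 by end (reversed) and 13.2 by nearest tile. With at least 5 CpGs per tile they were 1281, 1936, 34.9%, 11.4 and 25.03. The difference by nearest tile was 14.4 with tiles of 2 kb, 15.4 with mean CpG levels, 25.2 within 1 kb and 8.58 within 100 kb. Lost at both late passages were 3084 tiles. The kept share was 45.4% judged by passages 27 and 28 only, 39.9% with an early level of 95% or more and 40.3% with 100 reads in every library. At an early level of 95% or more the difference was 18.97 by density and -1.46 by end, and with 100 reads in every library, added after seeing the data, it was 13.0 by density. Leaving out each library in turn gave 3526 to 4223 kept tiles, 4466 to 9157 lost tiles (most without passage 8), a share of 25.6 to 37.7%, differences of 14.9 to 17.8 by density, -5.22 to -3.47 by end and 10.8 to 19.5 by nearest tile, slope differences of 0.266 to 0.351 for unused CpGs, 0.358 to 0.428 for adjacent tiles, -0.598 to -0.551 by end, -0.535 to -0.457 by density and 0.262 to 0.331 within 10 kb, and 19711 to 27160 called losses. Of 55 named kept tiles, 49 stayed at 90% with mean CpG levels, 34 of 40 with 10 reads and 6 of 7 with 20 reads. Depth limits single tiles: a kept tile had a median of 35 reads in its lowest library.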
